A study of Mus musculus with 35 samples.

Results

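Klf2, Klf4, Klf5, Esrrb, Tbx3, Tcfcp2l1, Nr0b1 and Nr5a2 are transcription factors that support the naive state of mouse pluripotent cells, and they are described here in iPS clones, ES cells and the primary cells the clones came from. The members were every gene of that set by its name on the array, 8 of the 27962 gene names on it. They have 15 of the 41174 gene probes, and Klf4, Nr0b1 and Nr5a2 have 1 probe each. Expression was measured in 1 colour (Cy3) on 35 Agilent mouse arrays, as background-subtracted spot intensity. Every level below is the log2 signal of a probe minus the 75th percentile of its array, so that 1 unit is 2-fold. Levels are compared between arrays for 1 probe at a time and never between genes, because probes differ in brightness for reasons other than transcript number.

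The 30 clones fall into 6 groups of 5. The 4F-clones were made with retroviral Oct3/4, Sox2, Klf4 and c-Myc, and the 3F-clones with the same factors except c-Myc. PαS cells are PDGFRα+ Sca-1+ mesenchymal stem cells and OP cells are PDGFRα- Sca-1- osteo-progenitors, both CD45- Ter119- and sorted from bone marrow, whereas TTF are tail tip fibroblasts. All donors were 6-week-old mice carrying a Nanog-GFP-IRES-Puro reporter. All clones were taken as GFP+ and DsRed- colonies after puromycin selection, so that each had switched on the Nanog reporter when it was picked, and they were grown with LIF on SNL feeder cells. The ES arrays are of 2 lines, EB-3 and RF8, and each primary cell type has 1 array without a replicate. The labels do not say whether clones of a group came from separate transductions. The p values rest on the spread between these clones within groups and on the gap between the 2 ES arrays. The fit shares 1 estimate of the spread over all groups, so that gap also enters comparisons between clone groups.

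All clones were scanned in 1 session on 8 slides. EB-3 shared a slide and a session with the 3 primary-cell arrays, and RF8 was scanned alone in another session with an older scanner protocol. For clones against ES cells, line and session cannot be told apart, whereas primary cells and EB-3 were compared on the same slide. On clone arrays 56.6% to 65.7% of probes were well above background, and precision is limited by how few arrays each group has. Among the clones, #1 and #3 of the 4F-OP-iPS group and #1 of the 4F-TTF-iPS group had Sox2 and Nanog not well above background, and 4F-OP-iPS #2 had Sox2 at -2.04 where the other 26 clones ranged from 0.21 to 3.23. By the brighter probes these were the lowest 4 of the 30 clones for Esrrb, Tbx3, Nr0b1 and Nr5a2, and not for the other 4 members.

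Mouse ES cells keep a naive state in which a small set of factors holds differentiation in check. LIF acts through Stat3, which sustains Klf4 and Tcfcp2l1, while Tbx3 and Klf2 are tied to other inputs, and Esrrb, Nr5a2 and Nr0b1 act beside Nanog and Oct3/4. Klf2, Klf4 and Klf5 are zinc-finger factors of 1 family with overlapping roles, and Klf4 is also one of the reprogramming factors. Esrrb and Nr5a2 are orphan nuclear receptors, and each has been used in place of a reprogramming factor. Nr0b1 (Dax1) is an X-linked orphan receptor that lacks a usual DNA-binding domain and restrains other factors. Tbx3 is a T-box factor, and Tcfcp2l1 is a factor of the CP2 family.

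**Figure D1:**
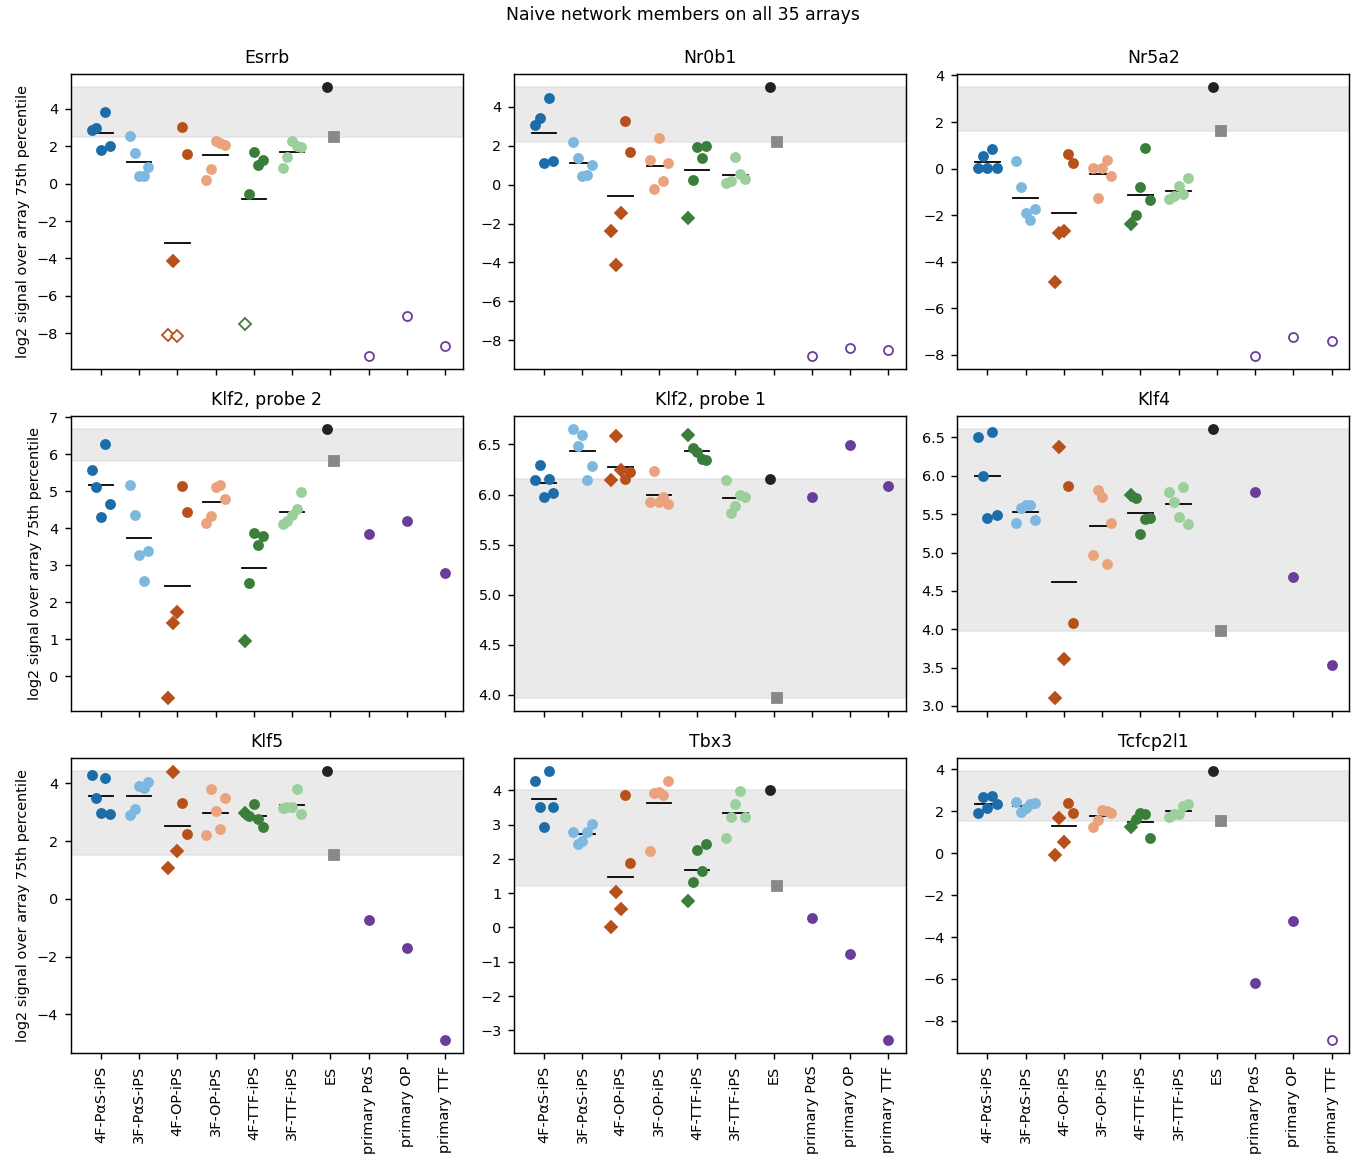
Log2 signal over the array's 75th percentile (y axis) for each member on all 35 arrays, by group (x axis), with Klf2 shown by both of its probes. Points are arrays, black bars are means of 5 clones, diamonds are the 4 clones low in Sox2, hollow points are not well above background, and the grey band runs from the lower to the higher ES array (black circle EB-3, grey square RF8). Nr5a2 lies below the band in all 30 clones, while Klf4 lies within it in 28.

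The nuclear receptors Esrrb, Nr0b1 and Nr5a2 were well above background on both ES arrays and on none of the primary cells, and most clones lay below both ES arrays. Esrrb was below both ES arrays in 25 of 30 clones, Nr0b1 in 25 and Nr5a2 in 30. By their brighter probes Klf4 and Klf5 lay between the ES arrays in 28 and 29 of 30 clones, but by its second probe, well above background in 27 clones, Klf5 lay between them in 11 and below both in 17. Klf2 has no single place in this order, since by its brighter probe 0 clones were below both ES arrays and 16 above both, while by its second probe 29 were below both.

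Esrrb, an activator of many naive genes, was read by a probe at chr12:84523822-84523881 (mm7, plus strand). Its level was 5.14 in EB-3 and 2.52 in RF8. The 4F-PαS-iPS clones #1 to #5 had 2.85, 3.0, 1.80, 3.84 and 2.02, and the 3F-PαS-iPS clones had 2.55, 1.61, 0.41, 0.40 and 0.87. Clone 4F-PαS-iPS #4 was the highest of all 30, and both PαS groups lay below EB-3 throughout. The 4F-OP-iPS clones had -8.08, -4.13, -8.16, 3.0 and 1.60, and the 3F-OP-iPS clones had 0.20, 0.79, 2.30, 2.17 and 2.09. Clones #1 and #3 of the 4F-OP group were not well above background, and its clone #2 lay far below every 3F-OP clone. The 4F-TTF-iPS clones had -7.49, -0.55, 1.70, 0.98 and 1.29, the first of them not well above background, and the 3F-TTF-iPS clones had 0.86, 1.41, 2.29, 2.02 and 1.94. In none of the primary cell types was Esrrb well above background, which makes it at least 3156-fold lower than in EB-3 in each of them. Such a bound sets the higher of the array's lowest well-above-background signal and the probe's own signal against the brighter array. It is not a strict detection limit, since a probe brighter than that lowest signal can also be not well above background. On 4F-TTF-iPS #4 the second probe of Esrrb was such a case, at -5.63 where the array's lowest was -5.87. All folds given as at least a value, here and below, rest on this measure. By the same measure, in clones #1 and #3 of 4F-OP-iPS and in clone #1 of 4F-TTF-iPS, Esrrb was at least 199-fold, 232-fold and 135-fold lower than the mean of the other 26 clones. All 3 frames of the probe hold a stop triplet, and the stretch below is shown with the first stop triplet of 2 of them in capitals.
Esrrb probe, 30 bases: ttcTGAtaatgacgttgtggctggaaTGAc

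Nr0b1 was read at chrX:81582482-81582541 (mm7, plus strand). Its level was 4.99 in EB-3 and 2.20 in RF8. The 4F-PαS-iPS clones had 3.04, 3.41, 1.09, 4.45 and 1.23 and the 3F-PαS-iPS clones 2.17, 1.38, 0.44, 0.48 and 1.02. As with Esrrb, 4F-PαS-iPS #4 was the highest clone. The 4F-OP-iPS clones had -2.36, -4.15, -1.46, 3.27 and 1.67 and the 3F-OP-iPS clones 1.25, -0.23, 2.38, 0.20 and 1.09. The lowest clone of all 30 was 4F-OP-iPS #2, and all 5 clones of its group were well above background. The 4F-TTF-iPS clones had -1.70, 0.22, 1.92, 1.38 and 1.99 and the 3F-TTF-iPS clones 0.06, 0.17, 1.40, 0.52 and 0.31. The 3 primary cell types were not well above background, at least 2844-fold lower than EB-3 in each.

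Nr5a2, which can act on the Oct3/4 gene, was read at chr1:136732418-136732477 (mm7, minus strand). It reached 3.49 in EB-3 and 1.61 in RF8. The 4F-PαS-iPS clones had 0.00, 0.55, 0.04, 0.86 and 0.03 and the 3F-PαS-iPS clones 0.31, -0.79, -1.92, -2.20 and -1.76. Clone 3F-PαS-iPS #1 stood with the 4F-clones and the other 3F-clones lay lower. In 4F-OP-iPS clones it was at -4.86, -2.77, -2.70, 0.61 and 0.23 and in 3F-OP-iPS clones at 0.00, -1.25, 0.02, 0.38 and -0.32. The 4F-TTF-iPS clones had -2.39, -2.01, -0.78, 0.89 and -1.34 and the 3F-TTF-iPS clones -1.29, -1.18, -0.73, -1.10 and -0.41. No clone reached RF8, and the closest was 4F-TTF-iPS #4. Primary cells were not well above background, at least 1001-fold lower than EB-3 in each.

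The direction of Klf2 against ES cells depended on its probe. Probe 1, the brighter, lies at chr8:70842757-70842816 (mm7, plus strand), has a GC content of 78.3% and holds no stop triplet in any frame. Probe 2 lies 1376 bases further along at chr8:70844133-70844192, has a GC content of 43.3% and holds stop triplets in 2 of 3 frames. Both are shown for this reason. Capitals mark runs of at least 6 G or C bases in probe 1 and the first stop triplet of each of those frames in probe 2.
Klf2 probe 1, whole: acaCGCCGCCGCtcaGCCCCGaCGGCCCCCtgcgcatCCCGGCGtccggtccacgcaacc
Klf2 probe 2, 30 bases: tgtataTAAgactaTGAccgattgtatttc

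By probe 1, all 30 clones lay between 5.81 and 6.65 with a median of 6.15. EB-3 was at 6.15, RF8 at 3.97 and the primary PαS, OP and TTF cells at 5.98, 6.50 and 6.08. Only RF8 stood apart. By probe 2 the clones spread from -0.58 to 6.28, a range of 6.86 against 0.84 by probe 1. The 4F-PαS-iPS clones had 5.56, 5.10, 4.30, 6.28 and 4.65 and the 3F-PαS-iPS clones 5.16, 4.35, 3.27, 2.57 and 3.37. The 4F-OP-iPS clones had -0.58, 1.43, 1.72, 5.14 and 4.45 and the 3F-OP-iPS clones 4.13, 4.33, 5.12, 5.17 and 4.79. The lowest 4 of the 30 clones by probe 2 were the 4 low in Sox2. The 4F-TTF-iPS clones had 0.94, 2.51, 3.87, 3.54 and 3.80 and the 3F-TTF-iPS clones 4.10, 4.20, 4.36, 4.52 and 4.97. EB-3 was at 6.67 and RF8 at 5.81, and 29 of 30 clones were below both. Primary PαS, OP and TTF cells had 3.84, 4.20 and 2.80, so by probe 2 the 4 clones low in Sox2 were below the primary cells as well. Over the 30 clones the probes had a Pearson r of -0.37.

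Klf4, a reprogramming factor in all 30 clones, has a single probe at chr4:55541780-55541839 (mm7, minus strand). Which part of Klf4 the vectors carried is not given in the sources used here, so it was not tested whether the probe reads the transgene. Stop triplets lie in 2 of its 3 frames, the first of each in capitals in the 30 bases shown.
Klf4 probe, 30 bases: ttcccagcaagtcagcttgTGAatggaTAA
Klf4 was at 6.60 in EB-3, 3.98 in RF8, 5.79 in primary PαS, 4.68 in OP and 3.53 in TTF cells. The primary PαS cells, which had received no factor, thus had more Klf4 signal than RF8 and than 23 of the 30 clones. Clones of 4F-OP-iPS had 3.11, 6.38, 3.62, 5.87 and 4.09 and those of 3F-OP-iPS 4.96, 5.81, 5.73, 4.84 and 5.39. The 4F-OP clones split, with #1 and #3 the lowest of all 30 clones and #2 ranked 3 from the top. The other groups were narrow, from 5.45 to 6.56 in 4F-PαS-iPS, 5.39 to 5.62 in 3F-PαS-iPS, 5.24 to 5.75 in 4F-TTF-iPS and 5.38 to 5.85 in 3F-TTF-iPS clones. Clone 4F-TTF-iPS #1, with no Esrrb above background, ranked 9 of 30 for Klf4, at 5.75.

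Klf5 was read by a probe that lies in pieces across chr14:93704580-93714312 (mm7, plus strand). It spans 9733 bases of the genome with 60 bases of sequence, so its bases are not contiguous in the genome, and it is shown whole because 2 of its 3 frames hold no stop triplet.
Klf5 probe 1, whole: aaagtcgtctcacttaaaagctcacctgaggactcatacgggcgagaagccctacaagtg
Klf5 was at 4.41 in EB-3 and 1.51 in RF8. In clones it ranged from 1.05 in 4F-OP-iPS #1 to 4.40 in 4F-OP-iPS #2, with a median of 3.13. The extremes of the 30 clones were thus in 1 group. Primary PαS, OP and TTF cells had -0.72, -1.72 and -4.88, all well above background and all below every clone.

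Tbx3 was read at chr5:118918450-118918509 (mm7, plus strand), where 1 of 3 frames holds stop triplets, the first in capitals below.
Tbx3 probe 1, 30 bases: ggcatcttacTAAcccatgtgaggttttca
It was at 4.01 in EB-3 and 1.20 in RF8. The 4F-PαS-iPS clones had 4.28, 3.51, 2.92, 4.55 and 3.50 and the 3F-PαS-iPS clones 2.79, 2.43, 2.53, 2.79 and 3.02. These groups overlapped by 1 clone, since 4F-PαS-iPS #3 lay below 3F-PαS-iPS #5. The 4F-OP-iPS clones had 0.01, 1.05, 0.54, 3.85 and 1.87 and the 3F-OP-iPS clones 2.23, 3.91, 3.94, 3.85 and 4.28. In OP-iPS 4 of the 5 4F-clones were below every 3F-clone, and 4F-OP-iPS #4 lay within the range of the 3F-clones. The 4F-TTF-iPS clones had 0.78, 1.31, 2.27, 1.63 and 2.42 and the 3F-TTF-iPS clones 2.60, 3.21, 3.61, 3.98 and 3.23, with no overlap. Primary PαS, OP and TTF cells had 0.27, -0.76 and -3.27.

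Tcfcp2l1 was the least variable member among the clones after Klf2 probe 1. It was read at chr1:118545588-118545647 (mm7, plus strand), at 3.90 in EB-3 and 1.55 in RF8. Clones ranged from -0.08 in 4F-OP-iPS #1 to 2.74 in 4F-PαS-iPS #4 with an SD of 0.622 (n = 30), and an SD of 0.432 without the 4 clones low in Sox2 (n = 26). Primary PαS and OP cells had -6.18 and -3.22, and TTF were not well above background, at least 1469-fold lower than EB-3.

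The ES arrays themselves differed. EB-3 was higher than RF8 for all 8 members, by 1.88 to 2.90, and for all 15 probes. The share of all probes on the array with EB-3 higher is not given here, so this is not a result about the members in particular. The lines, slides, sessions and scanner protocols differed together and cannot be told apart. Tbx3 lay below both ES arrays in 4 of 30 clones and Tcfcp2l1 in 5.

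The first comparison asks how far the members in reprogrammed clones stood from ES cells. In 1 limma fit over 27623 probes with 7 groups, a change was called at an adjusted p under 0.05 (Benjamini-Hochberg) and at least 2-fold. Against ES cells 3 of 8 members were called by their brighter probe, 2 lower and 1 higher, beside 36.2% of all probes tested. The members' share was therefore near that of all probes. The median difference of the 8 members was -0.36, and that of all probes was -0.11.

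Nr5a2 fell by 3.41 ± 0.84 (SE) on the log2 scale against ES cells (limma, adjusted p = 0.00141), 10.6-fold, and was lower than both ES arrays in 30 of 30 clones. Without the 4 clones low in Sox2 it was at -2.97 (adjusted p = 0.000126). Against RF8 alone the difference was -2.47 (adjusted p = 0.0992), and the call was lost. Nr0b1 fell by 2.71 ± 1.13 (SE; limma, adjusted p = 0.0466), and that call was lost in 17 of 32 fits that left out 1 array, with -1.31 (adjusted p = 0.539) against RF8 alone. It was also lost with quantile normalization (adjusted p = 0.0554), without a filter (adjusted p = 0.0501) and with the slide as a random block (adjusted p = 0.0615), while without the 4 clones Nr0b1 was at -2.09 (adjusted p = 0.019). Esrrb differed by -3.31 ± 1.89 (SE; limma, adjusted p = 0.144) and did not pass. Leaving out the 4 clones, its difference was -2.13 ± 0.66 (SE; limma, adjusted p = 0.00873), and Esrrb's second probe passed with all clones, at -2.78 (adjusted p = 0.00398). That probe was well above background in only 20 of 30 clones, so its difference rests partly on background-level signal. Klf2 was called in opposite directions by its probes, higher by 1.14 ± 0.25 (SE; limma, adjusted p = 0.000477) by probe 1 and lower by 2.33 ± 0.85 (SE; limma, adjusted p = 0.0224) by probe 2. The call by probe 1 rested on RF8, and against EB-3 alone it was 0.05 (adjusted p = 0.839).

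Klf4, Klf5 and Tbx3 differed from ES cells by 0.15 ± 0.53, 0.17 ± 0.58 and 0.16 ± 0.63 (SE), and Tcfcp2l1 by -0.87 ± 0.44 (SE; limma, adjusted p = 0.0953). None of these passed, and the SEs leave room for differences of 2-fold in each. The other probes of Tcfcp2l1 were at -0.98, 0.96 and 0.09 from the second brightest down, none of them passing, so its direction was not shared by all of them, and the second probe of Klf5 was at -0.50 (adjusted p = 0.415). Tcfcp2l1 was at -0.71 (adjusted p = 0.095) without the 4 clones.

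**Figure D2:**
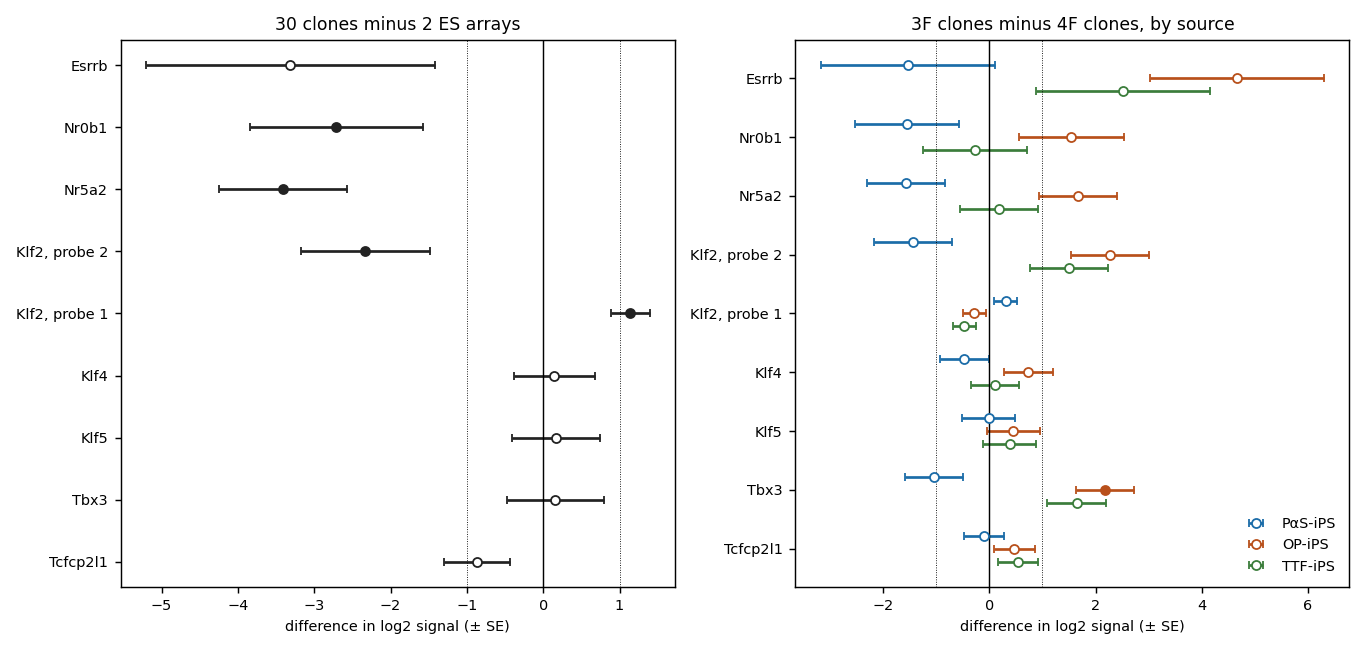
Difference in log2 signal (x axis, ± SE of the limma fit) for each member (y axis), for 30 clones minus 2 ES arrays on the left and for 3F- minus 4F-clones of each source on the right. Filled points were called at an adjusted p under 0.05 and at least 2-fold (dotted lines). On the left Nr0b1, Nr5a2 and Klf2 probe 2 were called lower and Klf2 probe 1 higher, and on the right only Tbx3 in OP-iPS was called, at 2.18.

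By group, 14 of 48 differences from ES cells were called. The 4F-OP-iPS clones had the most, 5 of 8, with Klf2 probe 1 higher and 4 members lower, Esrrb at -6.99 (adjusted p = 0.01), Nr5a2 at -4.45 (adjusted p = 0.000554), Nr0b1 at -4.20 (adjusted p = 0.00975) and Tcfcp2l1 at -1.44 (adjusted p = 0.0196), beside 34.7% of all probes. Without the 4 clones, which leaves 2 clones in that group, Esrrb was at -1.53 (adjusted p = 0.189), Nr0b1 at -1.13 (adjusted p = 0.399) and Tcfcp2l1 at -0.57 (adjusted p = 0.378), and none of these was called, while Nr5a2 was at -2.13 (adjusted p = 0.0341) and still was. The Esrrb values of this group include its 2 clones not well above background. By its other probes, from the second brightest down, Tcfcp2l1 in this group was at -1.42 (adjusted p = 0.0349), 0.08 (adjusted p = 0.948) and -0.96 (adjusted p = 0.159). By its brightest probe it was also not called without 4F-OP-iPS #1 alone, and against RF8 alone Esrrb, Nr0b1 and Tcfcp2l1 were not called in this group. The 4F-TTF-iPS clones had 3 called, Nr5a2 at -3.67 (adjusted p = 0.00286), Tcfcp2l1 at -1.25 (adjusted p = 0.0403) and Klf2 probe 1, beside 36.2% of probes, and the Tcfcp2l1 call was lost without 4F-TTF-iPS #1, without 4F-TTF-iPS #5, without EB-3, with normexp background (adjusted p = 0.0764), with quantile normalization (adjusted p = 0.0557) or with the slide as a random block (-1.36, adjusted p = 0.0678). The other Tcfcp2l1 probes were there at -1.11 (adjusted p = 0.0957), 0.37 (adjusted p = 0.735) and -0.26 (adjusted p = 0.723). Leaving out 4F-TTF-iPS #1 with the other 3 clones low in Sox2, Nr5a2 was at -3.36 (adjusted p = 0.000265) and Tcfcp2l1 at -1.19 (adjusted p = 0.0226), both called. The 3F-PαS-iPS clones had Nr5a2 at -3.82 (adjusted p = 0.00188) and Klf2 probe 1 called, beside 37.6% of probes. The 3F-TTF-iPS clones had Nr5a2 at -3.49 (adjusted p = 0.00407) and Nr0b1 at -3.10 (adjusted p = 0.0492), beside 37% of probes, and the Nr0b1 call was lost in 21 of 32 fits that left out 1 array, with quantile normalization (-2.93, adjusted p = 0.0547) and with the slide as a random block (-3.26, adjusted p = 0.0664). The 3F-OP-iPS clones had Nr5a2 alone, at -2.78 (adjusted p = 0.0196), beside 35.9%, and with the slide as a random block it was at -2.60 (adjusted p = 0.0557) and not called. In 4F-PαS-iPS clones only Klf2 probe 1 was called, at 1.06 (adjusted p = 0.00493), beside 27.9% of probes, and Nr5a2 was at -2.25 (adjusted p = 0.0659). The Klf2 probe 1 call was lost without RF8 in each of the 4 groups that had it, with adjusted p of 0.249 to 0.912. Against RF8 alone the only Nr5a2 call that held was that in 4F-OP-iPS clones.

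The second comparison asks whether the source of the clones mattered. By the brighter probes 0 of 8 members were called in limma between PαS-iPS and OP-iPS, beside 1.6% of probes, 0 of 8 between PαS-iPS and TTF-iPS, beside 0.5%, and 0 of 8 between OP-iPS and TTF-iPS, beside 0.0217%. At an unadjusted p under 0.05 there were 5, 1 and 0 members, beside 21.5%, 16.6% and 10.2% of all probes. All 5 were higher in PαS-iPS than in OP-iPS clones. They were Tcfcp2l1 at 0.79 ± 0.27 (SE; limma, adjusted p = 0.0857), Esrrb at 2.76 ± 1.16 (SE), Nr0b1 at 1.70 ± 0.69 (SE), Klf4 at 0.78 ± 0.32 (SE) and Klf5 at 0.81 ± 0.35 (SE). Without the 4 clones low in Sox2 they were at 0.35 for Tcfcp2l1 (adjusted p = 0.494), 0.03 for Esrrb (adjusted p = 0.985), 0.16 for Nr0b1 (adjusted p = 0.913), 0.60 for Klf4 (adjusted p = 0.28) and 0.69 for Klf5 (adjusted p = 0.295). Tcfcp2l1 has 4 probes, and 1 dimmer one at chr1:118539025-118539084 passed, at 1.28 (limma, adjusted p = 0.0194), and was at 0.85 (adjusted p = 0.143) without the 4 clones. With the slide as a block, Tcfcp2l1 was at 1.12 (adjusted p = 0.059). On the 3 slides that held both sources the difference for Tcfcp2l1 was 1.45, 1.06 and 0.95. For Esrrb it was 0.14 on the slide with 3F-clones, and on each slide with 4F-clones 1 of the OP clones was not well above background.

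The third comparison asks how 3F-clones, made without c-Myc, differed from 4F-clones. In the paper the 3F cells also met puromycin later after infection than the 4F cells, so c-Myc and selection time cannot be told apart. In OP-iPS clones Tbx3 was higher in 3F- than in 4F-clones by 2.18 ± 0.55 (SE; limma, adjusted p = 0.017), 4.52-fold. It was the only call of 8 members beside 4.51% of all probes, with 3 of 8 at an unadjusted p under 0.05 beside 24.6%. The call was lost without 4F-OP-iPS #1, without 4F-OP-iPS #3 or without 3F-OP-iPS #5, and without the 4 clones low in Sox2 the difference was 0.78 (adjusted p = 0.695). Esrrb was higher in 3F-OP-iPS clones by 4.66 ± 1.64 (SE; limma, adjusted p = 0.0741) and Klf2 probe 2 by 2.28 ± 0.73 (SE; limma, adjusted p = 0.0519), and neither passed. In that Esrrb difference 2 of the 5 4F-clones were not well above background, so its size rests partly on background-level signal. Esrrb was at -0.79 (adjusted p = 0.756) and Klf2 probe 2 at -0.08 (adjusted p = 0.976) without the 4 clones. In each of the 3 sources the clones made with and without c-Myc were on different slides, with 0 slides in common. With the slide as a random block Tbx3 in OP-iPS clones was at 2.08 (adjusted p = 0.12).

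In TTF-iPS clones Tbx3 was at 1.64 ± 0.55 (SE; limma, adjusted p = 0.0543), at 1.42 (adjusted p = 0.0727) without the 4 clones, at 1.18 (adjusted p = 0.615) with the slide as a random block and at -1.09 (adjusted p = 1) with it as a fixed block. There 0 of 8 members were called beside 5.77% of probes, with 2 at an unadjusted p under 0.05 beside 26.1%. In PαS-iPS clones 0 of 8 were called beside 0.0181% of probes, with 1 at an unadjusted p under 0.05 beside 17.3%. In that source Tbx3 was at -1.04, Esrrb at -1.53, Nr0b1 at -1.55, Nr5a2 at -1.57 and Klf2 at 0.31 by probe 1 and -1.43 by probe 2, none of which passed. The lowest adjusted p among the members in PαS-iPS clones was 0.269. Over the 3 sources 0 of 8 were called beside 5.34% of probes, with 1 at an unadjusted p under 0.05 beside 34.6%. That was Tbx3, at 0.93 ± 0.32 (SE; limma, adjusted p = 0.0373), which passed the test but not the 2-fold minimum, and which was at 0.74 (adjusted p = 0.359) with the slide as a random block and at 0.39 (adjusted p = 0.41) without the 4 clones. Without the 4 clones Nr0b1 was called over the sources, lower in 3F-clones by 1.32 on the log2 scale (-1.32, adjusted p = 0.0315).

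Whether the 3F-4F difference itself differed between sources was tested as an interaction. For Tbx3 the 3F-4F difference in PαS-iPS minus that in OP-iPS was -3.22 ± 0.78 (SE; limma, adjusted p = 0.0484), the 1 call of 8 members beside 0.648% of probes. At an unadjusted p under 0.05 there were 4 of 8, beside 18.9%. It was lost in 22 of 32 fits that left out 1 array and with the slide as a random block (-3.11, adjusted p = 0.0542), and without the 4 clones it was -1.82 (adjusted p = 0.733). Between PαS-iPS and TTF-iPS 0 of 8 were called beside 0.583% of probes, with 2 at an unadjusted p under 0.05 beside 19.3% and Tbx3 at -2.68 (adjusted p = 0.081), or -2.46 (adjusted p = 0.0709) without the 4 clones. Between OP-iPS and TTF-iPS 0 of 8 were called beside 0% of probes, and none had an unadjusted p under 0.05, beside 3.72%.

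The primary cells show what the clones started from. Against the mean of the ES arrays, 19 of 24 values (8 members in 3 cell types) were at least 2-fold lower. The exceptions were Klf2 by probe 1 in all 3 and Klf4 in PαS and OP cells. By probe 2 Klf2 was lower in all 3, at -2.40 in PαS, -2.03 in OP and -3.44 in TTF cells. The share of all probes at least 2-fold lower is not given here, so the count is not a result about the members in particular. On the slide shared with EB-3, Klf4 differed from EB-3 by -0.81 in PαS, -1.93 in OP and -3.07 in TTF cells. Tbx3 differed by -3.74, -4.77 and -7.28 in the same order, and Klf5 by -5.13, -6.13 and -9.29. TTF thus had the lowest signal of the 3 for Klf4, Klf5 and Tbx3, and PαS cells the highest, on 1 array each and with no test.

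Within the clones the members varied together to different degrees. Over 28 pairs of members, with Klf2 by probe 2, Pearson r over 30 clones had a median of 0.671 and ranged from 0.213 to 0.917. The 4 clones low in Sox2 carried much of this, and over the other 26 clones the median r was 0.394, from -0.27 to 0.90, with 12 pairs over 0.5. By its brighter probe, Klf2 had r over 30 clones of -0.32 with Esrrb, -0.51 with Tbx3, -0.27 with Nr5a2 and -0.19 with Nr0b1. With Tcfcp2l1, Klf4 and Klf5 that probe had r of -0.08, 0.10 and 0.14. No r over all pairs of probes is set beside these values. They are descriptions over clones that share slides and a session.

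Esrrb and Klf2 probe 2 had the highest r, 0.917 over 30 clones and 0.900 over 26. Klf2 probe 2 also followed Nr5a2, with r of 0.894 and 0.755. Klf4 and Klf5 followed each other, with r of 0.869 and 0.745, while with Nr5a2 they had r of 0.39 and 0.21 over 30 clones and -0.04 and -0.27 over 26. Without the 2 of those 26 farthest from the median of Klf4 or of Klf5, the r with Nr5a2 was -0.10 and -0.52. The 4 clones low in Sox2 differed in this. Clones #1 and #3 of 4F-OP-iPS ranked 30 and 29 of 30 for both Klf4 and Klf5 and 30 and 28 for Nr5a2, low throughout. Clone 4F-OP-iPS #2 ranked 3 of 30 for Klf4 and 1 for Klf5, but 27 for Esrrb, 29 for Nr5a2 and 30 for Nr0b1. Clone 4F-TTF-iPS #1 ranked 9 for Klf4 and 18 for Klf5, but 28 for Nr0b1, and its Esrrb was not well above background.

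**Figure D3:**
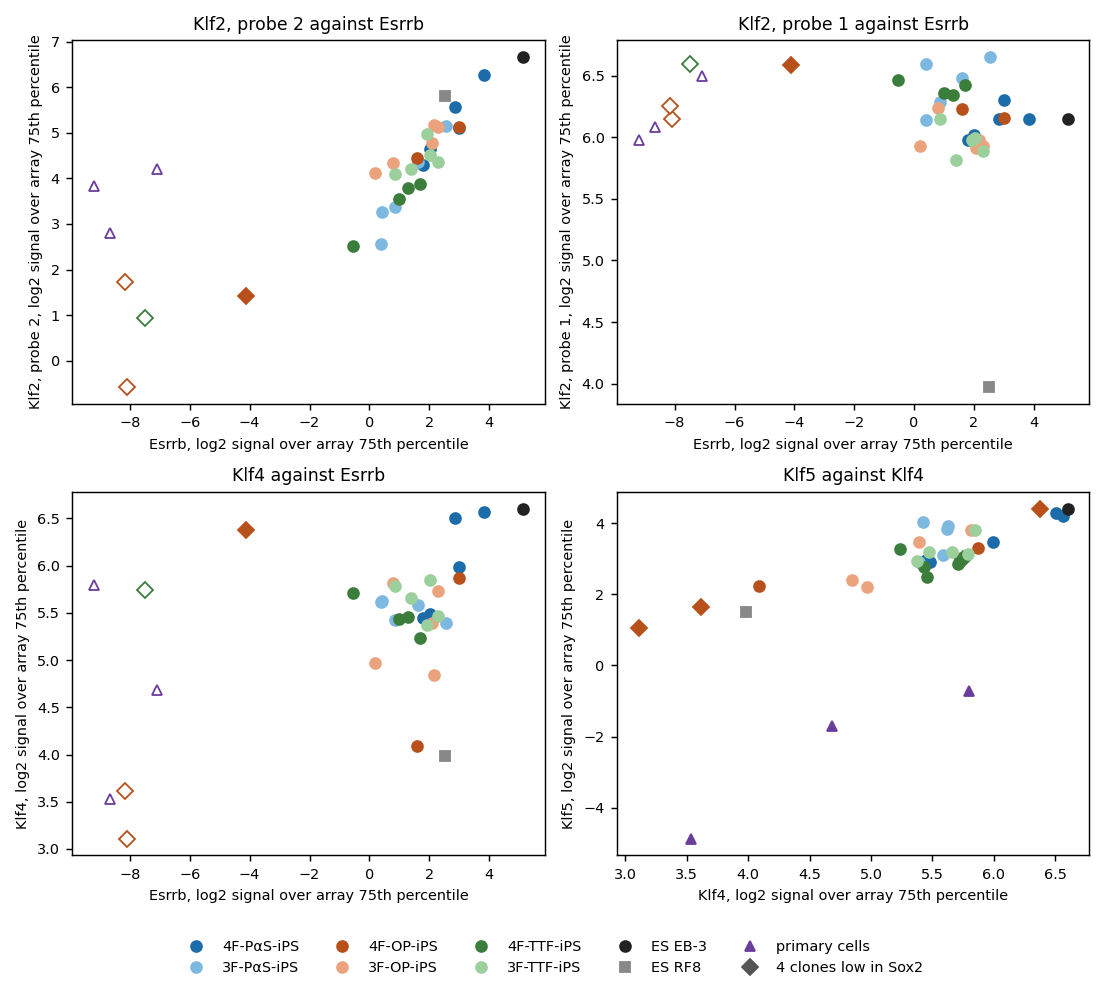
Log2 signal over the array's 75th percentile for pairs of members, 1 point per array, for Klf2 probe 2, Klf2 probe 1 and Klf4 against Esrrb and for Klf5 against Klf4. Colours are groups, diamonds the 4 clones low in Sox2, triangles primary cells, and hollow points have a member not well above background. Klf2 probe 2 rises with Esrrb (r of 0.900 over 26 clones), Klf2 probe 1 does not, and 4F-OP-iPS #2 and 4F-TTF-iPS #1 have Klf4 in the range of the other clones with Esrrb far below it.

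The genes most like each member over the 30 clones were found among all tested probes with a gene symbol. For Esrrb they were 1700012H05Rik (r of 0.996), Sox2 (0.984) and Dppa4 (0.981), with r of 0.964, 0.939 and 0.888 over the 26 clones. Nr0b1 was most like Sept1 (0.912), 2610524H06Rik (0.910) and Foxd3 (0.907), and Nr5a2 most like Rfx2 (0.906), Igfbp2 (0.894) and Klf2 by probe 2 (0.894). Tbx3 was most like Apoe (0.916), Rybp (0.915) and Hsd17b1 (0.914). Klf4 was most like Ric3 (0.886), Ctdp1 (0.883) and Dscr6 (0.883), and Klf5 most like Dcbld1 (0.933), Mll3 (0.910) and again Dscr6 (0.908). Tcfcp2l1 was most like Trim6 (0.906), Slc39a4 (0.890) and Zswim1 (0.885). The Klf2 probes had no like gene in common, since probe 2 was most like Amph (0.962), 2310076L09Rik (0.956) and Ndg2 (0.954), and probe 1 most like 2610009E16Rik (0.937), Maf (0.907) and Defcr3 (0.905). Over the 26 clones the r of these genes with the members other than Esrrb ranged from 0.721 to 0.929.

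Because Esrrb, Nr5a2, Nr0b1 and Klf2 probe 2 varied together, the 250 bases before their starts were read from RefSeq (GRCm38.p6), which has windows for 6 of the 8 members (Tcfcp2l1 as Tfcp2l1) and 8 starts in all. Klf5 and Tbx3 were not read. The letters searched, on both strands, were those of a Klf-type box, CCACCC, and of a GC box, CCGCCC. For nuclear receptors they were AGGTCA and the longer AAGGTCA, which contains it. For the octamer they were ATGCAAAT. CCACCC was in 5 of 8 windows, of Klf2, Nr0b1, both Esrrb starts and 1 of 2 Nr5a2 starts, and in 28.1% of the 32851 windows of all genes. It was in neither the Klf4 nor the Tcfcp2l1 window. AGGTCA was in the windows of Nr0b1 and 1 Nr5a2 start, and in 14% of all windows. CCGCCC was in those of Klf2 and Klf4, and in 32.7% of all. AAGGTCA and ATGCAAAT were in none of the 8, and in 4.08% and 1.6% of all. A match is a description of the letters and not of a bound site. Windows are shown for Klf2, whose probes disagree, for Nr0b1, which holds 2 of the motifs, for the Nr5a2 start with CCACCC and for the second Esrrb start, with the matches in capitals.
Klf2, chr8:72318812-72319061, plus strand: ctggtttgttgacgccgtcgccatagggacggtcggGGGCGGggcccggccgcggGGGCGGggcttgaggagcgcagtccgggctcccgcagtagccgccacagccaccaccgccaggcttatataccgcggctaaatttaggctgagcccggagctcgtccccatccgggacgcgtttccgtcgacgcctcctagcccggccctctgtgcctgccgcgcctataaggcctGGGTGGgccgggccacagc
Nr0b1, chrX:86191525-86191774, plus strand: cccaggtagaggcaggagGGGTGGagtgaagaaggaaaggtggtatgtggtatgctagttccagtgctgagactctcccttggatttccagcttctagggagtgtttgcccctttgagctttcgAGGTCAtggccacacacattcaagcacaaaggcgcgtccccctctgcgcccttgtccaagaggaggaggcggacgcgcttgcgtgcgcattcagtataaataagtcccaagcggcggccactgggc
Nr5a2, chr1:136953631-136953880, minus strand: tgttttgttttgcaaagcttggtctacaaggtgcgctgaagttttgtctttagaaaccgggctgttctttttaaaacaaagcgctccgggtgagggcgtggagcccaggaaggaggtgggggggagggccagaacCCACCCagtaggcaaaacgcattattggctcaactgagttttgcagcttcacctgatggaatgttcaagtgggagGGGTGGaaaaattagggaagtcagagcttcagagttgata
Esrrb, chr12:86421394-86421643, plus strand: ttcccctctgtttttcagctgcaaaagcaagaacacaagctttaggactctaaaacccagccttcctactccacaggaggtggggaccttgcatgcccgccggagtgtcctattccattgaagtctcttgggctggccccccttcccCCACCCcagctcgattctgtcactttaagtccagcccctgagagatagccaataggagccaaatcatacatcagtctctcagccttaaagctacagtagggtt

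Other genes of the naive network, 17 tested of a list of 20, were tested beside the members. Against ES cells 0 rose and 4 fell, beside calls for 36.2% of all probes, with a median of -0.98, led by Zfp42 (Rex1), a marker of the naive state, at -5.34 (adjusted p = 8.11e-06) and Gbx2, a homeobox factor, at -4.08 (adjusted p = 0.00143). In OP-iPS clones 3 were higher in 3F- than in 4F-clones and none lower, led by Dppa5a at 3.76 (adjusted p = 0.0311) and Zfp42 at 2.41 (adjusted p = 0.0382), beside 4.51% of all probes. Over the 3 sources 2 were higher, Dppa3 at 2.37 (adjusted p = 0.0495) and Dppa5a at 1.74 (adjusted p = 0.0458), beside 5.34% of all probes. Between PαS-iPS and OP-iPS clones 1 passed, Zfp42, at 1.81 (adjusted p = 0.0442), beside 1.6%. Without the 4 clones low in Sox2 none of these calls between clone groups was made, with Dppa5a at -0.05 (adjusted p = 0.977) and Zfp42 at -0.03 (adjusted p = 0.992) in OP-iPS clones and Zfp42 at 0.59 (adjusted p = 0.455) between the sources. With the slide as a random block Dppa5a was at 3.96 (adjusted p = 0.143) and Zfp42 at 2.52 (adjusted p = 0.165) in OP-iPS clones, differences no smaller than before, and 0 of 17 were called there. Over the sources Dppa3 was then at 2.22 (adjusted p = 0.347) and Dppa5a at 1.61 (adjusted p = 0.325), and 0 of 17 were called. Without the 4 clones these were at 0.35 and 0.15. Zfp42 between PαS-iPS and OP-iPS was still called with the random block.

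Of the LIF and BMP input genes, 9 tested, 1 rose against ES cells, the LIF receptor gene Lifr at 2.33 (adjusted p = 0.00214), beside the 36.2% of all probes. The BMP target Id3 was higher in 3F- than 4F-clones in OP-iPS, at 1.95 (adjusted p = 0.013), and in TTF-iPS, at 1.54 (adjusted p = 0.0352), and Id2 in OP-iPS, at 1.36 (adjusted p = 0.0128). These calls stand beside 4.51% of all probes in OP-iPS and 5.77% in TTF-iPS. With the slide as a random block the differences were 1.82 for Id3 in OP-iPS (adjusted p = 0.126), 1.55 in TTF-iPS (adjusted p = 0.404) and 1.19 for Id2 (adjusted p = 0.135), and without the 4 clones 1.00 (adjusted p = 0.55), 1.35 (adjusted p = 0.0629) and 0.98 (adjusted p = 0.341). None of these passed. Of 15 tested close relatives of the members, beside the same 36.2%, 2 rose against ES cells, Tbx2 at 2.61 (adjusted p = 7.99e-05) and Klf6 at 1.48 (adjusted p = 0.000405), and 3 fell, led by Klf12 at -3.07 (adjusted p = 0.00687) and Klf1 at -2.57 (adjusted p = 2.49e-05). Klf17 was higher in 3F-clones in OP-iPS, at 2.46 (adjusted p = 0.0216), and in TTF-iPS, at 2.53 (adjusted p = 0.0153), where Tbx2 was lower in 3F-clones, at -1.49 (adjusted p = 0.026). Klf7 was lower in PαS-iPS than in OP-iPS clones, at -1.01 (adjusted p = 0.0436). Without the 4 clones Klf17 was at 0.52 (adjusted p = 0.847) in OP-iPS and 2.39 (adjusted p = 0.0123) in TTF-iPS, Tbx2 at -1.53 (adjusted p = 0.0452) and Klf7 at -0.76 (adjusted p = 0.111). With the slide as a random block they were at 2.82, 2.32, -1.20 and -0.93 in the same order, with adjusted p of 0.0962, 0.366, 0.422 and 0.078.

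Markers of other cell types moved with the comparison to ES cells. Beside the 36.2% of all probes called in that comparison, all 8 primitive endoderm markers were higher in clones than in ES cells, with a median of 4.72, led by Sox17 at 6.73 (adjusted p = 2.18e-09), and so were 9 of 14 fibroblast markers, with a median of 3.62, and 4 of 5 tested trophoblast markers. Of 8 tested genes listed as primed epiblast markers 1 rose, Foxa2 at 5.76 (adjusted p = 1.79e-07), and 3 fell, with a median of -2.11 for the list. The summed linear fibroblast signal, in multiples of the array's 75th percentile, was 2.24 in EB-3, 39.9 in RF8, 35.6 to 51.2 in the 4 clones low in Sox2, 44.0 to 295 in the other 26 and 290 to 1119 in primary cells. The sums of the 4 clones low in Sox2 lay below the median of the other 26, which was 89.3. All 14 fibroblast markers were well above background in each primary cell type. In the 4 clones low in Sox2 the 1 fibroblast marker not well above background was Lum, in all of them but 4F-OP-iPS #2. The summed primitive endoderm signal was 1.43 in EB-3, 1.99 in RF8 and 11.3 to 125 in clones, and 4F-OP-iPS #2 had the highest. The clones grew on feeder cells, and in these bulk samples fewer cells of a type and less RNA per cell cannot be told apart. Markers moved with the 3F-4F comparison as well. In OP-iPS clones, beside 4.51% of all probes, 1 of 14 fibroblast markers (Col5a1, 1.63, adjusted p = 0.0492), 1 of 5 trophoblast markers (Cdx2, 2.47, adjusted p = 0.0483) and 1 of 8 primed markers (Pou3f1, 1.62, adjusted p = 0.0417) were higher in 3F-clones, and 0 of 8 primitive endoderm markers. The medians were 1.36 for fibroblast, 0.72 for trophoblast, 1.29 for primed and -0.24 for primitive endoderm markers, beside 0.02 for all probes. In TTF-iPS clones 1 trophoblast marker was lower, Elf5, at -3.88 (adjusted p = 0.0142), beside 5.77% of all probes. With the slide as a random block Elf5 was at -3.73 (adjusted p = 0.342) and not called. Without the 4 clones low in Sox2 it was at -3.50 (adjusted p = 0.0401) and still called. Over the 3 sources 3 of 5 trophoblast and 2 of 14 fibroblast markers were higher, beside 5.34%, led by Hand1 at 2.45 (adjusted p = 0.0288) and Postn at 1.88 (adjusted p = 0.0384). With the slide as a random block Hand1 was at 2.50 (adjusted p = 0.225) and Postn at 1.75 (adjusted p = 0.314). Without the 4 clones low in Sox2 they were at 0.82 (adjusted p = 0.372) and 1.21 (adjusted p = 0.271), and none of these passed. Cdx2 passed without those clones, at 1.23 (adjusted p = 0.0251), but not with the random block, at 1.82 (adjusted p = 0.121). In OP-iPS clones Col5a1, Cdx2 and Pou3f1 were at 1.64, 2.59 and 1.64 with the slide as a random block, and none was called. Without the 4 clones low in Sox2 they were at 0.57, 0.14 and -0.09, and none was called either. The part of these cell types in the members' differences was not tested.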

How the data were processed

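Total RNA of 30 iPS clones, 2 ES lines and 3 primary cell types was hybridised to 1-colour Agilent arrays. The deposited scanner files hold spot intensity from Feature Extraction, background-subtracted by its own settings. The authors also deposited a table of log2 values made in GeneSpring, centred for each probe on the median of the 35 arrays, which was used only as an alternative. From the scanner files, control spots and spots marked as outliers (54 to 152 per array) were left out, replicate spots were averaged, and each array's 75th percentile was subtracted on the log2 scale. On 18968 probes these values correlated with the authors' table at 0.99997 or more. A probe entered the fit if some group had it well above background throughout, and the 27623 such probes were fitted in limma 3.58.1 (R 4.3.3) with 7 groups (6 clone groups and ES), and p values were adjusted by Benjamini-Hochberg. Primary cells, with 1 array each, were not tested.

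Members and gene lists were chosen with earlier results of these data known. A member was read by its brightest probe over clones and ES arrays, and other lists name at most the 2 largest calls in each direction. The likeness rule took the 3 highest Pearson correlations over the 30 clones. Alternatives were normexp background (offset 50), quantile normalization, the authors' table, no filter, no fold minimum, the second brightest probe, slide and clone number as blocks, each ES array alone and each array left out. Leaving out the 4 clones low in Sox2, and running the other gene lists with the slide as a random block, were chosen after seeing the data. The fit was tested on simulated data. Probe positions are in mm7, and figures and other values used Python 3.11.15, numpy 2.4.6, pandas 2.3.3, scipy 1.17.1 and matplotlib 3.10.9.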

Additional observations from a re-analysis of the deposited data

Results flagged for a closer look

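In 5 of 54 groups of 5 clones tested (probes by groups), the highest or lowest clone lay far from the rest, where chance gives about 1 in 20, or 2.7. For Esrrb, 4F-TTF-iPS #1 was at -7.49, not well above background, and the other 4F-TTF-iPS clones were at -0.55 to 1.70. For Tbx3, 3F-OP-iPS #1 was at 2.23 and the others of its group at 3.85 to 4.28. For Klf5, 3F-TTF-iPS #4 was at 3.81 and the others at 2.95 to 3.19. By Klf2 probe 1, 4F-OP-iPS #2 was at 6.59 with the others at 6.15 to 6.25, and 3F-OP-iPS #2 at 6.24 with the others at 5.91 to 5.98. The 3F-4F difference of Tbx3 itself differed between PαS-iPS and OP-iPS clones, by -3.22 (limma, adjusted p = 0.0484). That call was lost in 22 of 32 fits that left out 1 array, with the slide as a random block (adjusted p = 0.0542) and without the 4 clones low in Sox2 (-1.82, adjusted p = 0.733).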

How the results depend on the processing

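The count of members called against ES cells was 3, and 1 with RF8 alone. Nr0b1 lost its call there with quantile normalization, no filter or the slide as a random block, at adjusted p of 0.0554, 0.0501 and 0.0615. For 3F against 4F over the sources it was 0, and 1 without the 4 clones low in Sox2 (Nr0b1) or with no fold minimum (Tbx3). In OP-iPS clones it was 1 (Tbx3), and 0 with the slide as a random block, without the 4 clones or with the second brightest probes, where Tbx3 was not tested. In TTF-iPS clones it was 0, and 1 (Tbx3) with quantile normalization or without either ES array. Over the 3 interactions it was 1, and 0 with normexp background, no filter, the slide as a random block, without the 4 clones or with the second brightest probes. With the slide as a fixed block only the interaction of PαS-iPS with OP-iPS could be fitted, and Tbx3 was not called, at -2.31 (adjusted p = 0.305).

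With the clone number as a replicate block the count in TTF-iPS clones was 1, and over the 6 groups against ES cells 19 in place of 14. Clone numbers carry no pairing in the labels, and of 75 same-number pairs 16 had a correlation of deviations over 0.1.

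Klf2 turned direction with its second probe, to -2.33 over all clones, -1.06 in 4F-PαS-iPS, -2.49 in 3F-PαS-iPS, -3.81 in 4F-OP-iPS and -3.31 in 4F-TTF-iPS clones. By its first probe it was -0.0337 in 4F-PαS-iPS clones with EB-3 alone, the lowest of the fits without 1 array, and 2.15 with RF8 alone, the highest. The cause was not tested.

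Leaving out 1 array at a time gave counts of 1 to 3 against ES cells, 12 to 19 over the 6 groups, 0 to 2 for PαS-iPS against OP-iPS, 0 to 0 for either against TTF-iPS, 0 to 2 for 3F against 4F over the sources, 0 to 0 in PαS-iPS, 0 to 3 in OP-iPS, 0 to 1 in TTF-iPS and 0 to 5 over the interactions. Esrrb, Nr0b1 and Nr5a2 in primary cells, Tcfcp2l1 in primary TTF, and Esrrb in 3 clones have only a bound, since their signal was not well above background, and Esrrb's second probe was well above it in only 20 of 30 clones.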
